A study of Mus musculus with 12 samples.

Results

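The 7 Trav6 segments without the D suffix, Trav6-1 to Trav6-6 and Trav6-7-dv9, were followed through the T cell receptor alpha (Tcra) repertoire of mouse thymocytes. They were taken by name as every Trav row called TRAV6 with a number, with or without a DV suffix, and not TRAV6D. All 7 were listed in each of the 12 libraries, among 79 Trav segments that every library listed and 85 listed in any. Each was followed with all 43 Traj partners, which made 301 of the 3397 pairs of shared Trav segments. The rule used names and no measured value, although the members were chosen with earlier results of these data known.

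The libraries came from preselection double-positive (DP) thymocytes, sorted as CD4 and CD8 positive and CD3e negative, of mice aged 4 to 6 weeks. WT mice were homozygous for the intact DPASE element and KO mice homozygous for its knockout (DPASEKO), and all groups carried TcrdCreER and a Rosa26 ZsGreen reporter. The genotype labels give the reporter as heterozygous and the strain labels as homozygous. The strain was C57BL/6J, with the TcrdCreER allele bringing Tcra-Tcrd loci of strain 129. Each genotype was sampled at steady state, with no tamoxifen, and again 24 h and 48 h after an injection of tamoxifen (1 mg). At those times only ZsGreen-positive cells were taken, so that cells in which Cre had been activated could be followed as a cohort. The 6 groups held 2 libraries each. The labels speak of groups of 2 mice without saying that each library is 1 mouse, so p-values measure only how far these libraries vary, some of which may be technical.

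During Tcra recombination in DP cells, a Trav segment is joined to a Traj segment, and later rounds on the same allele replace the first join with a Trav segment farther upstream and a Traj segment farther downstream. First joins use Trav segments close to the Traj array and Traj segments at its 5' end. DPASE is known as a regulatory element of the Rag1 and Rag2 locus, which encodes the recombinase, in DP thymocytes. The Trav6 family is spread along the array, so its members sample distal, central and proximal positions with closely related coding sequences. Part of the array is duplicated in the C57BL/6 genome, and the copies bear the suffix D or N. The suffix DV marks a segment that can also be joined to segments of the delta locus.

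By row order, Trav6-1 was segment 3 and Trav6-2 segment 5 of the 79, at the distal end of the array. The central members were Trav6-3 at 41, Trav6-4 at 43, Trav6-5 at 47 and Trav6-6 at 49. Trav6-7-dv9 stood at 68, among the 27 most proximal segments. The GENCODE M21 annotation of GRCm38 gives the same order on the plus strand of chromosome 14, with 2 coding exons in each gene. There the genes lie at chr14:52638515-52638962 (Trav6-1), chr14:52667411-52667864 (Trav6-2), chr14:53428711-53430377 (Trav6-3), chr14:53454296-53454784 (Trav6-4), chr14:53491115-53491622 (Trav6-5), chr14:53516929-53517366 (Trav6-6) and chr14:53709902-53710419 (Trav6-7-dv9). The first and the last span 1071.9 kb, and 760.8 kb of this separates Trav6-2 from Trav6-3. The 5 Trav6d copies lie between these, each 695.0 to 703.4 kb upstream of the member of its own number.

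The last 40 bases of each member's second coding exon are shown, because this end is joined to a Traj segment and its small differences are part of what tells the members apart. They are printed 5' to 3' on the plus strand, from the GENCODE M21 transcripts. Capitals mark the codon of the conserved cysteine and the bases after it, up to the end of the exon. The reference is C57BL/6J, and the sequence of the strain 129 loci in these mice was not analysed here. In order, the runs lie at chr14:52638923-52638962, chr14:52667825-52667864, chr14:53430338-53430377, chr14:53454745-53454784, chr14:53491583-53491622, chr14:53517327-53517366 and chr14:53710380-53710419.
Trav6-1: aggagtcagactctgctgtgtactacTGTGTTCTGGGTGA
Trav6-2: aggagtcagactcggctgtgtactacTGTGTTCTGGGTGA
Trav6-3: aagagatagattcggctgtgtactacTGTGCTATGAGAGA
Trav6-4: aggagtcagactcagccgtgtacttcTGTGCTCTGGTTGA
Trav6-5: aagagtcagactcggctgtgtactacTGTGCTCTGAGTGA
Trav6-6: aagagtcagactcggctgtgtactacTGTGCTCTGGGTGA
Trav6-7-dv9: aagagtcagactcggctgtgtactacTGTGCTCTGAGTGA

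Trav6-5 and Trav6-7-dv9 are identical over these 40 bases, and Trav6-1 and Trav6-2 share all 14 capital bases. Over the last 289 bases of the exon, 2 members are 75.3% to 94.8% identical, with a median of 81.7% over the 21 pairs of members. Trav6-1 and Trav6-2 are the pair at 94.8%. Trav6-6 and Trav6d-6 have the same coding sequence. How the authors' processing split sequences between such copies is not given in the sources used here, so the shares of Trav6-6 and Trav6d-6 are uncertain relative to each other. The same holds for Trav6-3 and Trav6d-3, which differ at 1 of these 289 bases. GRCm38 also holds Trav6n-5, Trav6n-6 and Trav6n-7, whose values were not analysed here. Over the 289 bases Trav6n-7 is identical to Trav6d-7, Trav6n-5 differs from Trav6-5 at 1 base and Trav6n-6 from Trav6-6 at 8, so the values of Trav6d-7 and Trav6-5 are uncertain in the same way.

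Each table holds the fraction of the repertoire of every Trav-Traj pair, and each value was expressed as a share of its own table's total. The fractions of 8 tables sum to 0.995 to 0.998. Those of the other 4, which are the replicate 2 libraries of WT and KO from 24 h and 48 h, sum to 1.97 to 1.99. The 4 tables stood apart for these members too. The summed share of the members was 7.32% to 9.05% in the 8 tables and 2.02% to 2.70% in the 4, and 234 to 296 of their 301 pairs were above 0 in the 8 against 82 to 118 in the 4. The depth is unknown. The smallest share above 0 was 0.000336% to 0.000853% in the 8 tables and 0.00401% to 0.00937% in the 4, and 1.57% to 14.9% and 43.5% to 56.7% of all pairs stood at 0. The table set and the replicate number coincide at 24 h and 48 h and cannot be told apart. Some results that rest on these tables are given with and without them, and the others over all 12 libraries only. Neither DPASE nor the Rag genes are measured in these tables, which leaves the genotypes as labelled, unchecked. The marker pair of invariant NKT cells, Trav11 with Traj18, held at most 0.0462% and was at 0 in 3 libraries. That of MAIT cells, Trav1 with Traj33, held at most 0.0503% and was at 0 in 4.

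At steady state Trav6-6 was the most used member and ranked 4 to 7 among the 79 Trav segments. It held 2.66% and 2.57% of the repertoire in the WT libraries and 2.73% and 2.85% in the KO libraries. Trav6-5 ranked 12 to 17, with 1.95% and 1.92% in WT and 1.93% and 1.90% in KO. Trav6-7-dv9 held 1.60% and 1.28% in WT and 2.08% and 1.59% in KO. Trav6-6 lay above Trav6-5 in all 4 steady-state libraries, and Trav6-7-dv9 lay below Trav6-5 in WT and on either side of it in KO. Trav6-4 was at 0.672% and 0.685% in WT and 0.599% and 0.769% in KO. Trav6-1 held 0.590% and 0.687% in WT and 0.389% and 0.558% in KO. The share of Trav6-2 was 0.542% and 0.607% in WT and 0.377% and 0.474% in KO. In WT, Trav6-1 overlapped both Trav6-4 and Trav6-2, whereas Trav6-4 lay above Trav6-2. Trav6-3 was the least used member, with 0.0821% and 0.101% in WT and 0.0812% and 0.0965% in KO, and ranked 77 or 78 of 79. The 2 segments of lowest and highest use, Trav6-3 and Trav6-6, are both central. The share counts whatever unit the authors counted and was not scaled by length.

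**Figure D1:**
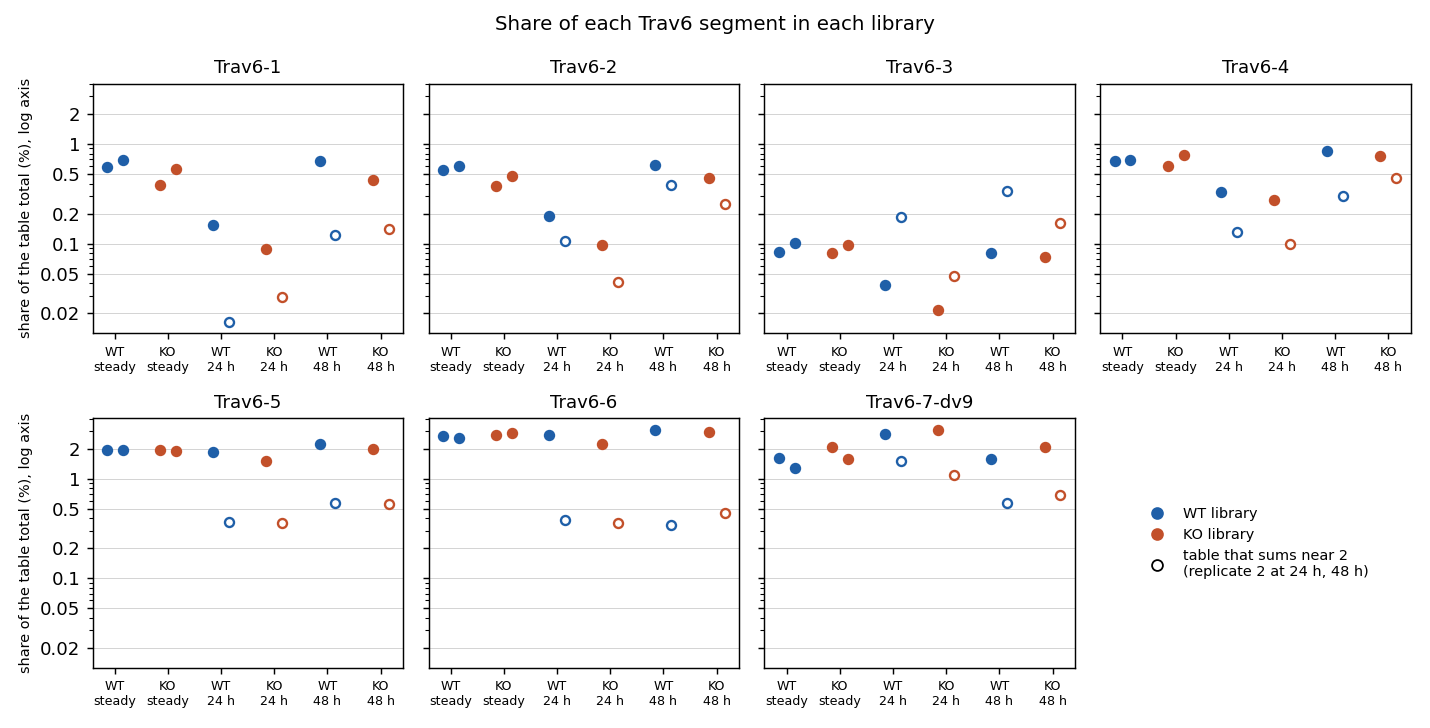
Share of each of the 7 Trav6 segments in each library, as percent of the table total on a log axis, for WT (blue) and KO (orange) at steady state, 24 h and 48 h (n = 2 libraries a group, each a point). Open points mark the 4 tables that sum near 2, which lie below the closed points of their group for Trav6-5 and Trav6-6 and above them for Trav6-3.

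The steady-state comparison asks how the use of each position along the array differs when DPASE is missing. The distal members were lower in both KO libraries than in both WT libraries, and Trav6-6 was higher. The 2 distal members, Trav6-1 and Trav6-2, and Trav6-6 were the only ones of the 7 whose WT and KO libraries did not overlap. Over all 79 segments, 38% had both KO libraries below both WT libraries and 29.1% above, so 2 of 7 below and 1 of 7 above is near the background. Over all 12 libraries, limma on log2(percent + 0.01) gave a KO minus WT difference of -0.44 ± 1.05 (SE, adjusted p = 0.999) for Trav6-1. For Trav6-2 the same test gave -0.43 ± 0.49 (adjusted p = 0.999), and for Trav6-7-dv9 0.34 ± 0.74 (adjusted p = 0.999). Trav6-6 was at 0.09 ± 1.42, Trav6-3 at -0.04 ± 0.81, Trav6-5 at -0.01 ± 1.03 and Trav6-4 at 0.00 ± 0.67. None of the 7 passed the threshold of 0.05, and neither did any of the 79 (0% called, and none of the 79 even at an unadjusted p under 0.05). The standard errors share the spread of all 12 libraries, which the 4 tables widen. With limma on the 4 steady-state libraries alone again none of the 79 passed, but 1 of the 7 and 28 of the 79 stood at an unadjusted p under 0.05.

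At 24 h the distal members were at their lowest. Trav6-1 held 0.154% and 0.0165% in WT and 0.0887% and 0.0293% in KO. The share of Trav6-2 was 0.190% and 0.107% in WT and 0.0960% and 0.0410% in KO, the only member whose KO libraries both lay below both WT libraries at this time. Over all Trav segments 7.59% lay below in this way and 5.06% above. Trav6-3 stood at 0.0384% and 0.184% in WT and at 0.0213% and 0.0470% in KO. For Trav6-4 the shares were 0.329% and 0.132% in WT and 0.276% and 0.0996% in KO. In Trav6-4 the replicate 2 libraries of both genotypes lay below the replicate 1 libraries, while in Trav6-3 they lay above. Trav6-5 held 1.85% and 0.370% in WT and 1.49% and 0.358% in KO. Trav6-6 held 2.73% and 0.382% in WT and 2.25% and 0.358% in KO. For these most used members the 2 libraries of a group differed far more than the genotypes did. Trav6-7-dv9 held 2.82% and 1.497% in WT and 3.10% and 1.09% in KO, and was the most used of the 7 members in all 4 libraries at this time.

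At 48 h the distal members were back near their steady-state shares in the replicate 1 libraries. Trav6-1 held 0.676% and 0.123% in WT and 0.436% and 0.140% in KO. Trav6-2 held 0.610% and 0.388% in WT and 0.456% and 0.250% in KO. Trav6-3 held 0.0805% and 0.339% in WT and 0.0731% and 0.161% in KO. The WT and KO libraries of each of these 3 members overlapped. Trav6-4 was at 0.840% and 0.302% in WT and at 0.756% and 0.456% in KO. The values of Trav6-5 were 2.22% and 0.566% in WT and 1.98% and 0.559% in KO. Those of Trav6-6 were 3.05% and 0.340% in WT and 2.95% and 0.448% in KO. Trav6-7-dv9 held 1.58% and 0.575% in WT and 2.07% and 0.689% in KO. All 7 members overlapped between genotypes at 48 h, where 13.9% of all Trav segments were higher in KO and 6.33% lower without overlap.

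Averaged over the 3 samplings, the KO minus WT difference on the log2(percent + 0.01) scale was lowest for Trav6-2, at -0.67 ± 0.29 (SE, adjusted p = 0.671 with limma). Trav6-3 followed at -0.60 ± 0.47 and Trav6-1 at -0.25 ± 0.61, and Trav6-7-dv9 was highest at 0.17 ± 0.43. None of the 7 and none of the 79 passed (0%). At an unadjusted p under 0.05 stood 1 of the 7, Trav6-2, and 5 of the 79. At 24 h and at 48 h alone no member and no other segment passed either (0% each), with 0 and 1 of the 79 at an unadjusted p under 0.05. The members' median difference over the samplings was -0.09 against -0.10 over all 79. The answer depended on how the 4 tables entered. With a term for these tables in the model, an alternative chosen after seeing the data, Trav6-2 was lower in KO by -0.67 ± 0.10 (adjusted p = 0.00405) and Trav6-3 by -0.60 ± 0.17 (adjusted p = 0.0264), where 16.5% of all segments were called lower. Under that term Trav6-2 was also lower at 24 h alone, at -1.05 ± 0.18 (adjusted p = 0.016), and was the sole segment so called (1.27%). Without the 4 tables, Trav6-1 at -0.60 ± 0.15 (adjusted p = 0.0458) and Trav6-2 at -0.58 ± 0.11 (adjusted p = 0.0259) were lower in KO, against 30.4% of all segments. That fit leaves 1 library a group at 24 h and 48 h, which is assumed to vary like the steady-state groups. Trav6-2 was thus called under both alternatives, and Trav6-1 and Trav6-3 under 1 each.

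From steady state to 24 h the distal members fell in the mean of both genotypes. Trav6-1 fell by 3.11 ± 0.75 (SE, adjusted p = 0.0192 with limma) on the log2(percent + 0.01) scale and Trav6-2 fell by 2.25 ± 0.35 (adjusted p = 0.0063). The central member Trav6-4 fell by 1.81 ± 0.47 (adjusted p = 0.0253). Trav6-6 was at -1.48 ± 1.00 (adjusted p = 0.305), Trav6-5 at -1.29 ± 0.73 (adjusted p = 0.242) and Trav6-3 at -0.64 ± 0.58 (adjusted p = 0.423), none past the threshold. The proximal Trav6-7-dv9 was the only member with a positive value, 0.27 ± 0.52 (adjusted p = 0.712). So 3 of 7 members were called lower, beside 16.5% of all segments lower and 5.06% higher. The call of Trav6-1 was lost without WT steady-state replicate 1 or 2, KO steady-state replicate 2 or replicate 2 of either genotype at 24 h (adjusted p up to 0.0753). That of Trav6-4 was lost without any 1 of the 4 steady-state libraries or replicate 2 of either genotype at 24 h (adjusted p up to 0.102). With the replicate number as a block, 4 members were lower, Trav6-5 in addition (adjusted p = 0.0497), against 35.4% of all segments. Steady-state cells were all preselection DP cells and 24 h cells only the ZsGreen-positive ones, so sampling time and labelling cannot be told apart here.

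From 24 h to 48 h the order turned. Trav6-2 rose by 1.97 ± 0.35 (SE, adjusted p = 0.0177 with limma) in the mean of both genotypes. Trav6-1 was at 2.12 ± 0.75 (adjusted p = 0.0993), Trav6-4 at 1.49 ± 0.47 (adjusted p = 0.0779) and Trav6-3 at 1.19 ± 0.58 (adjusted p = 0.227). Trav6-5 stood at 0.47 ± 0.73 and Trav6-6 at 0.18 ± 1.00, while Trav6-7-dv9 stood at -0.86 ± 0.52 (adjusted p = 0.343). Thus 1 of 7 members was called higher, beside 8.86% of all segments higher and 1.27% lower. The call of Trav6-2 was lost without WT replicate 2 at 24 h or KO replicate 1 at 48 h (adjusted p up to 0.0626), and without WT replicate 1 at 24 h Trav6-1 was called as well (adjusted p = 0.0477). With the replicate block, 5 members passed. Trav6-1, Trav6-2, Trav6-3 and Trav6-4 were higher (adjusted p = 0.025, 0.00446, 0.0359 and 0.0194) and Trav6-7-dv9 was lower (adjusted p = 0.0479), against 20.3% of all segments higher and 11.4% lower.

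The term for the 4 tables gave 6 calls of 7 for this change. Trav6-1 (adjusted p = 6.85e-05), Trav6-2 (2.51e-06), Trav6-3 (0.000813), Trav6-4 (6.28e-05) and Trav6-5 (0.00503) were higher at 48 h and Trav6-7-dv9 was lower (0.000988), with 41.8% and 17.7% of all segments called higher and lower. Trav6-6 was not called (adjusted p = 0.236). Without the 4 tables the same 6 members were called, with 45.6% and 17.7% of all segments. For the step from steady state to 24 h, both alternatives called Trav6-1, Trav6-2, Trav6-3 and Trav6-4 lower and Trav6-7-dv9 higher. With the term, Trav6-7-dv9 was higher by 0.95 ± 0.17 (adjusted p = 0.00101), beside 20.3% of all segments higher and 40.5% lower. Without the tables it was higher by 0.87 ± 0.17 (adjusted p = 0.00878), beside 27.8% higher and 46.8% lower. The change from 24 h to 48 h did not pass a test of its difference between genotypes in any member, nor in any of the 79 (0%, with 1 of 79 at an unadjusted p under 0.05). The differences between genotypes ranged from -0.14 ± 1.49 in Trav6-1 to 0.63 ± 1.15 in Trav6-3.

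**Figure D2:**
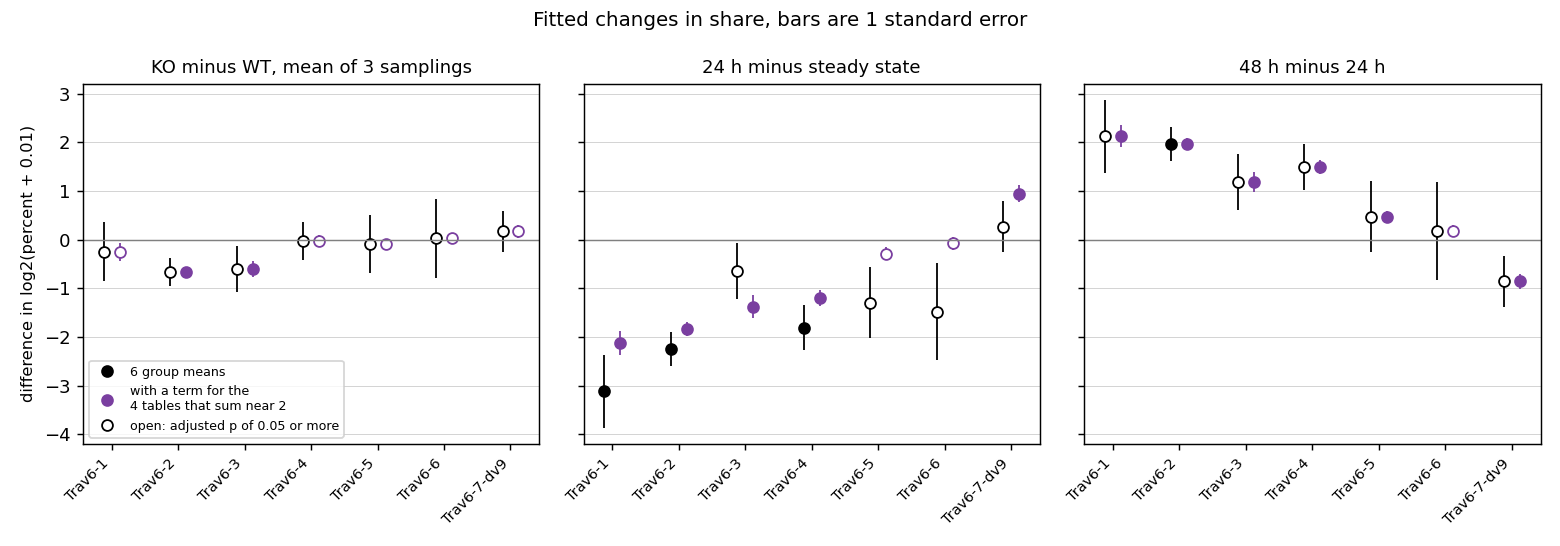
Fitted difference in log2(percent + 0.01) for the 7 members, ordered from distal to proximal, for KO minus WT over the 3 samplings and for the steps from steady state to 24 h and from 24 h to 48 h, without (black) and with (purple) a term for the 4 tables that sum near 2. Bars are 1 standard error and filled points have an adjusted p under 0.05. The black points of Trav6-1, Trav6-2 and Trav6-4, at -3.11, -2.25 and -1.81, sit furthest below 0 from steady state to 24 h, and Trav6-7-dv9 is the only member above 0.

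The 2 distal members, Trav6-1 and Trav6-2, were lowest relative to the other members at 24 h. Their summed share as a percent of that of all 7 members is a ratio within each library. It was 14.0% and 16.5% in WT and 9.35% and 12.5% in KO libraries of steady-state cells. At 24 h it was 4.24% and 4.58% in WT and 2.52% and 3.48% in KO, and at 48 h 14.2% and 19.4% in WT and 10.2% and 14.4% in KO. Both KO libraries lay below both WT libraries at steady state and at 24 h, and the groups overlapped at 48 h. The mean KO minus WT difference was -3.39 percentage points, -3.33 without the 4 tables, and -4.25 to -2.53 when 1 library at a time was left out. This ratio was close between the replicates of WT at 24 h, although their tables belong to different sets, and farther apart in every other group. Replicate 2 lay above replicate 1 in all groups. As a comparison over all Trav segments, the median change from steady state to 24 h was -1.32 in the 26 most distal segments, -1.28 in the 26 central ones and 0.34 in the 27 most proximal ones. With the term for the 4 tables these medians were -0.65, -0.88 and 0.57, so the order of distal and central turned. From 24 h to 48 h the medians were 0.58, 0.67 and -0.45, so that the distal members, at 2.12 and 1.97, lay above the median of the distal segments.

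The segments whose shares moved most like each member, by Pearson r of log2(percent + 0.01) over the 12 libraries, came from several Trav families. For Trav6-1 they were Trav7d-2 (r = 0.96), Trav6d-7 (0.96) and Trav16d-dv11 (0.95). For Trav6-2 they were Trav4d-4 (0.98), Trav7-1 (0.98) and Trav14d-3-dv8 (0.96). Trav6-4 was most like Trav7-1 (0.95), Trav6d-7 (0.92) and Trav16d-dv11 (0.92). Among central members, Trav6-5 was most like Trav7-3 (0.99), Trav8d-1 (0.98) and Trav6d-6 (0.98), and Trav6-6 most like Trav8-1 (0.99), Trav15-1-dv6-1 (0.98) and Trav11 (0.97). Trav6-3 had the weakest match, 0.86 with Trav9d-3, Trav13d-4 and Trav8d-2. Trav6-7-dv9 was most like Trav19 (0.97), Trav5-4 (0.96) and Trav21-dv12 (0.95). These values are descriptions, since the 12 points share the split into 2 table sets. Over the 8 tables that sum near 1, the first match became Trav13d-4 for Trav6-1, Trav6-2 and Trav6-4, Trav7-3 for Trav6-3, Trav13d-3 for Trav6-5, Trav10 for Trav6-6 and Trav5-4 for Trav6-7-dv9.

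The members also differed in their Traj partners. Traj segments are numbered from Traj58 at the 5' end of the array down to Traj2 at its 3' end, so the mean Traj number of a segment's partners, weighted by use, is high when it joins to 5' segments. In WT at steady state it was 22.7 and 21.5 for Trav6-1, 24.0 and 23.1 for Trav6-2 and 24.5 and 22.4 for Trav6-3. Trav6-3 overlapped both distal members, and Trav6-2 lay above Trav6-1. It was 27.3 and 25.7 for Trav6-4, 31.7 and 30.8 for Trav6-5, 32.7 and 32.1 for Trav6-6 and 39.6 and 40.8 for Trav6-7-dv9. From Trav6-4 on, each member lay above the one before it in both WT libraries, in the order of the array. Trav6-3 is central and close to Trav6-4, and its values lay within or beside those of the distal members. Its copy Trav6d-3, a distal segment from which it differs at 1 base of the 289, was at 24.5 and 23.6 in WT and held 0.410% and 0.459% of the repertoire, above Trav6-3. Whether Trav6d-3 transcripts entered the values of Trav6-3 was not tested.

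In KO mice at steady state the partners of every member lay farther 5' than in WT. The mean Traj number was 28.7 and 28.7 for Trav6-1, 31.9 and 30.98 for Trav6-2 and 31.5 and 29.4 for Trav6-3. For Trav6-4 it was 32.0 and 30.8, for Trav6-5 35.9 and 34.4, for Trav6-6 36.8 and 35.4 and for Trav6-7-dv9 42.3 and 42.2. Both KO libraries lay above both WT libraries in 7 of 7 members, as in 97.5% of all Trav segments, so this is the general pattern. With limma over all 12 libraries the shift passed for Trav6-2 (7.92 ± 1.55 SE, adjusted p = 0.00341), Trav6-3 (7.04 ± 2.38, adjusted p = 0.0326) and Trav6-5 (3.92 ± 1.22, adjusted p = 0.0244), 3 of 7 against 48.1% of all segments. The shift was 6.59 ± 2.78 for Trav6-1 (adjusted p = 0.0695), 4.86 ± 2.38 for Trav6-4 (0.105), 3.65 ± 1.61 for Trav6-6 (0.08) and 2.11 ± 1.17 for Trav6-7-dv9 (0.138). On the 4 steady-state libraries alone, all members but Trav6-7-dv9 passed (adjusted p = 0.0551 there), 6 of 7 against 75.9% of all segments. Over all 12 libraries the call of Trav6-3 was lost without any 1 of the 4 steady-state libraries (adjusted p up to 0.174) and that of Trav6-5 without WT replicate 1 or 2 or KO replicate 1 of steady state (up to 0.171). Trav6-1 and Trav6-6 passed without either WT library of 24 h, and Trav6-4 without either KO library of 24 h. With the percent of joins in the 5' window in place of the mean Traj number none of the 3 calls held (adjusted p = 0.171, 0.395 and 0.347 for Trav6-2, Trav6-3 and Trav6-5).

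**Figure D3:**
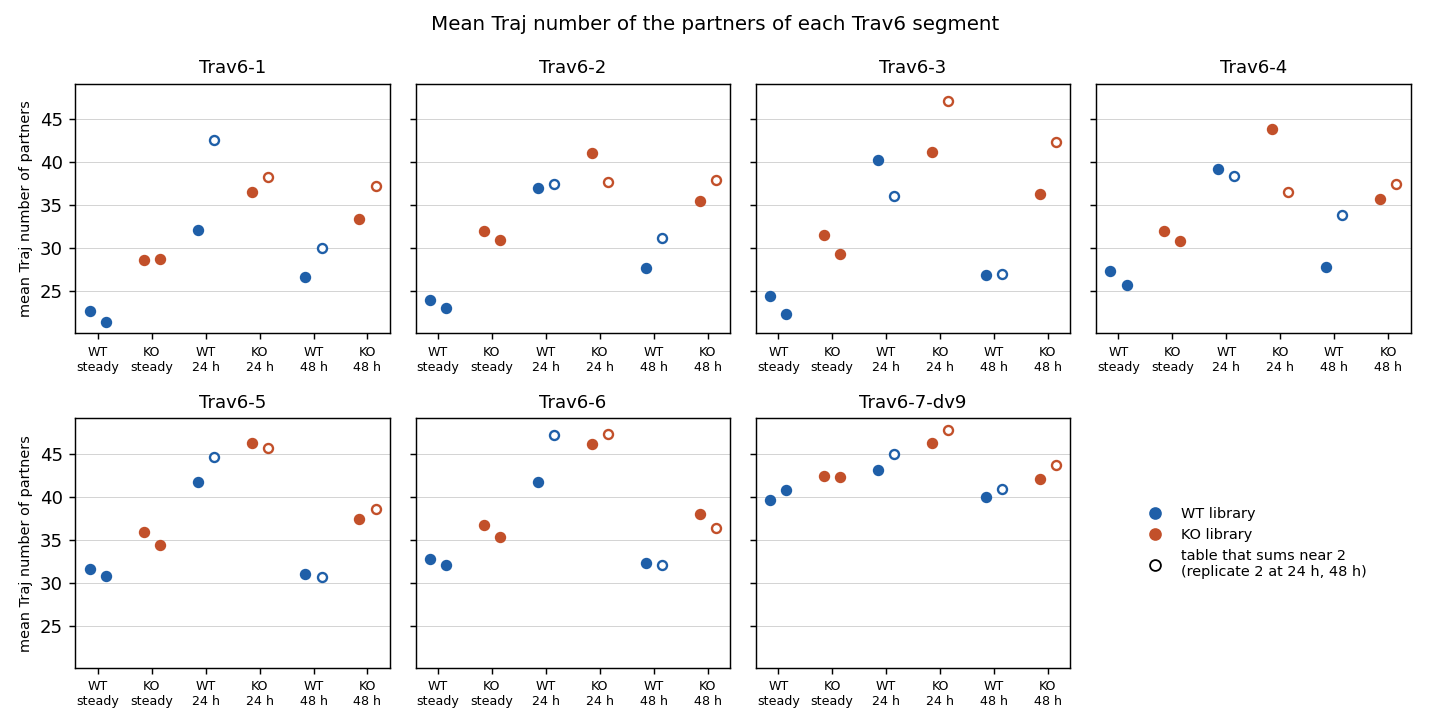
Mean Traj number of the partners of each Trav6 segment in each library (n = 2 a group), for WT (blue) and KO (orange), with open points for the 4 tables that sum near 2. At steady state both KO points lie above both WT points in every panel, and all members are higher at 24 h.

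The same shift can be read from the most 3' window of 7 Traj segments, Traj11 to Traj2. In WT at steady state this window took 23.2% and 25.2% of the joins of Trav6-1, against 7.24% and 8.68% in KO. It took 22.7% and 24.8% of those of Trav6-2 in WT and 5.57% and 6.95% in KO. For Trav6-3 it took 26.8% and 31.5% in WT and 9.21% and 9.06% in KO. Trav6-4 gave 14.9% and 18.8% in WT and 7.56% and 6.43% in KO. Trav6-5 gave 10.4% and 12.2% against 4.81% and 5.49%, and Trav6-6 gave 11.9% and 12.6% against 4.72% and 5.84%. Trav6-7-dv9 gave the lowest shares, 4.92% and 5.15% in WT and 2.38% and 2.42% in KO. In all 7 members both WT values lay above both KO values. The share of all Trav segments with this order in the window was not computed. By the mean Traj number, which rests on the same joins, nearly all Trav segments separated the genotypes, so this is not particular to the members. At the other end, the 5' window of 13 Traj segments, Traj58 to Traj42, took 7.98% and 7.19% of the joins of Trav6-1 in WT and 14.0% and 15.0% in KO. For Trav6-7-dv9 it took 54.4% and 58.2% in WT and 62.8% and 62.0% in KO. The window shares were not tested, since they rest on the same joins as the mean Traj number.

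Single Traj segments led for most members alike. By the mean of the 2 WT libraries at steady state, Traj31 was the most frequent partner of Trav6-1 (5.81% of its joins), Trav6-3 (5.62%), Trav6-4 (4.77%), Trav6-5 (4.90%) and Trav6-6 (5.11%). Trav6-2 was led by Traj6 (5.50%) and Trav6-7-dv9 by Traj49 (6.00%). By the mean of the 2 KO libraries, Traj31 led all members from Trav6-1 (8.46%) to Trav6-6 (5.50%), and Trav6-7-dv9 was led by Traj52 (7.50%). By these means Trav6-2 was the one member whose leading partner lay in the most 3' window in WT and in the middle of the array in KO. The leads did not hold in every library. In WT replicate 2, Traj15 (5.91%) stood above Traj31 (5.50%) for Trav6-1, and Traj12 (4.99%) above Traj31 (4.64%) for Trav6-4. In WT replicate 1, Traj9 (5.36%) stood above Traj6 (4.71%) for Trav6-2, and Traj52 (6.05%) above Traj49 (5.33%) for Trav6-7-dv9. In KO, Traj31 held 8.33% and 3.48% of the joins of Trav6-3, and Traj34 held 4.83% and 5.92%. For Trav6-5 in KO replicate 1, Traj49 (5.10%) stood above Traj31 (5.09%).

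**Figure D4:**
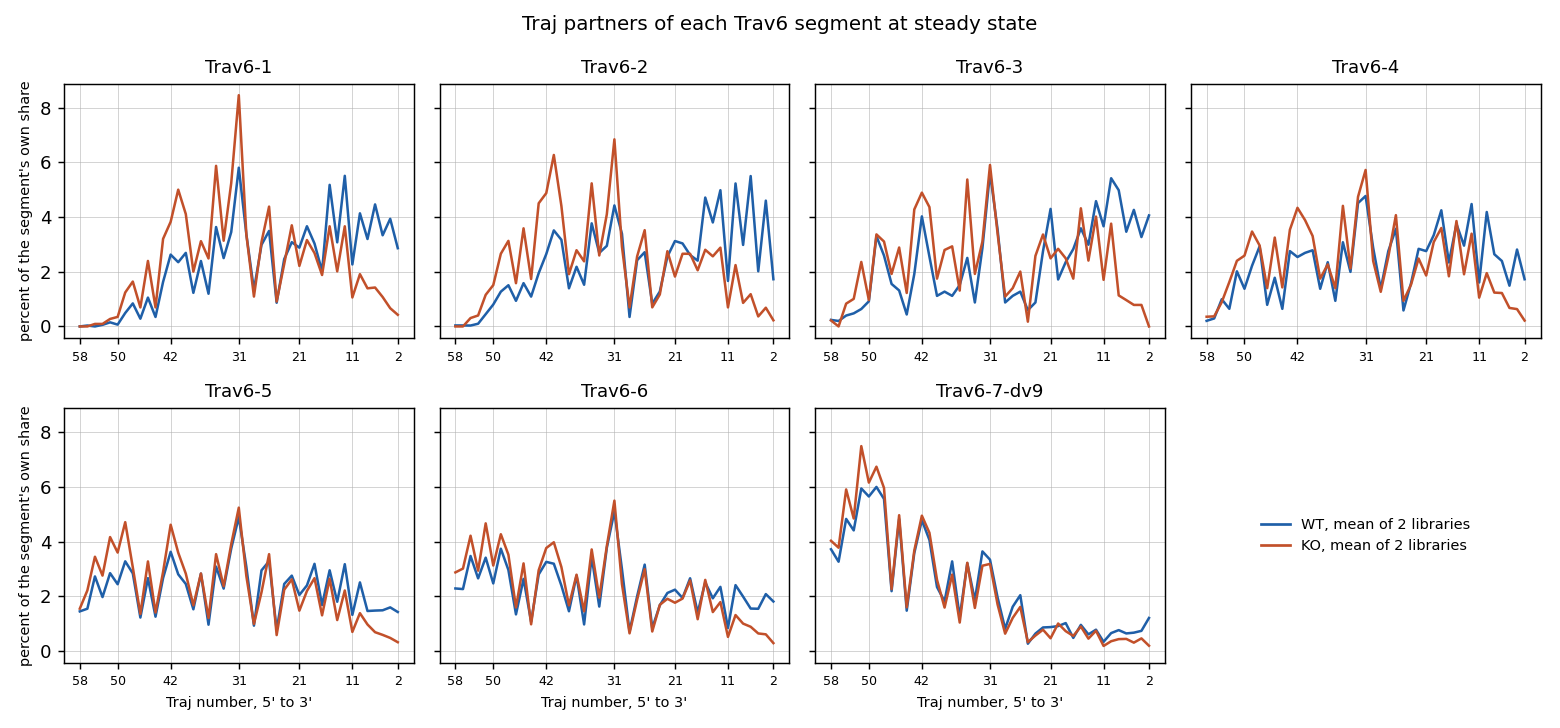
Share of each Trav6 segment's joins that go to each of the 43 Traj segments, in 5' to 3' order, at steady state, as the mean of 2 libraries for WT (blue) and KO (orange). In all 7 panels the WT line lies above the KO line at each of the 7 Traj segments from Traj11 to Traj2, and in Trav6-7-dv9 both lines are highest at Traj49 or Traj52.

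At 24 h the partners of all members lay farther 5' than at steady state. The mean Traj number of Trav6-1 was 32.1 and 42.5 in WT and 36.5 and 38.3 in KO, where the second value of each pair rests on 2 and on 3 Traj segments above 0. That of Trav6-2 was 36.9 and 37.5 in WT and 41.1 and 37.7 in KO, and that of Trav6-3 40.2 and 36.1 against 41.1 and 47.1. The KO libraries lay above the WT libraries in Trav6-2 and Trav6-3 and overlapped them in Trav6-1. In Trav6-2 the KO value of 37.7 lay close to the WT value of 37.5 and rests on 4 Traj segments above 0. The KO value of 47.1 in Trav6-3 rests on 5. Trav6-4 was at 39.1 and 38.4 in WT and 43.9 and 36.5 in KO, also with overlap. Trav6-5 was at 41.8 and 44.6 in WT and 46.2 and 45.6 in KO. Trav6-6 was at 41.7 and 47.1 against 46.1 and 47.3, and Trav6-7-dv9 at 43.1 and 44.98 against 46.3 and 47.8. In Trav6-5 and Trav6-7-dv9 both KO libraries lay above both WT libraries, in Trav6-6 they did not. This made 4 of 7 members without overlap, beside 86.1% of all segments. No member passed at this time with limma (0 of 7, beside 46.8% of all segments, with 2 of 7 members and 49 of 79 segments at an unadjusted p under 0.05). The widest difference was 5.97 ± 2.38 (SE) in Trav6-3 (adjusted p = 0.0574). Trav6-7-dv9 followed in adjusted p, at 2.96 ± 1.17 (0.0574).

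The 24 h comparison of partners moved with the treatment of the 4 tables and of the replicate number. With the replicate block Trav6-7-dv9 passed (adjusted p = 0.0416, beside 49.4% of all segments). With the term for the tables Trav6-3 (adjusted p = 0.0476) and Trav6-7-dv9 (adjusted p = 0.0236) passed, beside 65.8%. Without the 4 tables, 1 library a group was left at 24 h, so the spread came from the steady-state groups alone. The shifts of 6 of the 7 members then ran from 3.13 in Trav6-7-dv9 to 4.74 in Trav6-4. Trav6-3 was the exception there, at 0.89. Its wide difference over all 12 libraries thus rested on the replicate 2 libraries, in which its KO value was 47.1 from 5 Traj segments above 0. Without WT replicate 2 at 24 h, Trav6-1, Trav6-5, Trav6-6 and Trav6-7-dv9 passed, and without KO replicate 1 at 24 h Trav6-3 and Trav6-7-dv9 did. Leaving out WT replicate 1 or 2 at 48 h brought Trav6-7-dv9 past the threshold, and leaving out KO replicate 1 or 2 at 48 h Trav6-3.

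At 48 h the partners of all 7 members again separated the genotypes. The mean Traj number of Trav6-1 was 26.6 and 30.0 in WT and 33.3 and 37.2 in KO. That of Trav6-2 was 27.7 and 31.1 in WT and 35.5 and 37.96 in KO, and that of Trav6-3 was 26.9 and 27.0 against 36.3 and 42.3. The WT values of these members lay above their steady-state WT values, and the KO values above their steady-state KO values. Trav6-4 was at 27.8 and 33.9 in WT and 35.7 and 37.4 in KO, and Trav6-5 at 31.05 and 30.7 against 37.4 and 38.5. Trav6-6 was at 32.3 and 32.1 in WT and 38.001 and 36.4 in KO, and Trav6-7-dv9 at 40.02 and 40.9 against 42.1 and 43.7. Both KO libraries lay above both WT libraries in 7 of 7 members, beside 83.5% of all segments. With limma 5 of 7 were called, beside 69.6%. The shift was 12.35 ± 2.38 (SE, adjusted p = 0.00179) in Trav6-3 and 7.32 ± 1.55 (adjusted p = 0.00279) in Trav6-2. It was 7.08 ± 1.22 (adjusted p = 0.00113) in Trav6-5, 6.96 ± 2.78 (adjusted p = 0.0442) in Trav6-1 and 4.99 ± 1.61 (adjusted p = 0.0204) in Trav6-6. Trav6-4 at 5.75 ± 2.38 (adjusted p = 0.0511) and Trav6-7-dv9 at 2.42 ± 1.17 (adjusted p = 0.0845) were not called. The call of Trav6-1 was kept only without either WT library of 24 h or KO replicate 1 at 48 h, and lost without any other single library (adjusted p up to 0.23). That of Trav6-6 was lost without WT replicate 1 or 2 or KO replicate 1 at 48 h (up to 0.0938), and Trav6-4 passed without either KO library of 24 h or WT replicate 2 at 48 h. Trav6-1 was also not called with the 5' window (adjusted p = 0.128) or with array weights, which give each library a weight by its spread (0.065).

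In the mean over the 3 samplings, all 7 members had partners farther 5' in KO than in WT, beside 93.7% of all segments. The shift was 8.45 ± 1.37 (SE, adjusted p = 0.000294 with limma) in Trav6-3, 5.81 ± 0.90 (0.00022) in Trav6-2 and 4.57 ± 0.71 (0.00022) in Trav6-5. It was 4.56 ± 1.60 (adjusted p = 0.02) in Trav6-1, 4.01 ± 1.38 (0.018) in Trav6-4, 3.63 ± 0.93 (0.00415) in Trav6-6 and 2.50 ± 0.68 (0.0057) in Trav6-7-dv9. The proximal member had the smallest shift of the 7. Over all segments the median shift was 6.25 in the distal 26, 4.89 in the central 26 and 3.01 in the proximal 27. The members' median was 4.56 against 4.71 over all 79. Without the 4 tables these medians were 5.78 and 5.34, and Trav6-2, not Trav6-3, had the largest shift. The KO replicate 2 values of Trav6-3, 47.1 at 24 h and 42.3 at 48 h, rest on 5 and 9 Traj segments above 0. Without WT replicate 1 at 48 h neither Trav6-1 (adjusted p = 0.0605) nor Trav6-4 (adjusted p = 0.0542) was called, and neither was with the percent in the 5' window (0.0816 and 0.0807).

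From 24 h to 48 h the partners of all 7 members moved toward the 3' end, as in 97.5% of all segments. The mean Traj number fell by 10.85 ± 1.14 (SE, adjusted p = 7.44e-06 with limma) in Trav6-6 and fell by 10.12 ± 0.87 (adjusted p = 2.26e-06) in Trav6-5. The change was -8.01 ± 1.68 in Trav6-3 (adjusted p = 0.00093), -5.79 ± 1.69 in Trav6-4 (0.00711), -5.55 ± 1.97 in Trav6-1 (0.0192) and -5.23 ± 1.10 in Trav6-2 (0.00093). Trav6-7-dv9 moved least, at -3.86 ± 0.83 (adjusted p = 0.00106). The members' median change was -5.79 over all 12 libraries and -8.77 without the 4 tables. In WT alone all 7 members were called, beside 91.1% of all segments. In KO alone Trav6-5, Trav6-6 and Trav6-7-dv9 were called (adjusted p = 0.000259, 0.000377 and 0.00758), beside 82.3%. Without the 4 tables, which leaves 1 library a group at these times, the members' median change in KO was -5.57, against -6.83 over all 79. In the mean of both genotypes, Trav6-1 lost its call without replicate 2 of either genotype at 24 h or replicate 1 of either at 48 h (adjusted p up to 0.073). From steady state to 24 h all 7 had risen, as had 100% of all segments, by 14.19 ± 1.68 in Trav6-3 at the most and by 4.30 ± 0.83 in Trav6-7-dv9 at the least. No member passed a test of the genotype difference in the 24 h to 48 h change, beside 2.53% of all segments, and 2 of 7 members and 16 of 79 segments stood at an unadjusted p under 0.05. The estimate of that difference was 6.84 ± 3.93 in Trav6-1, 6.37 ± 3.37 in Trav6-3, 5.14 ± 2.19 in Trav6-2 and -0.54 ± 1.66 in Trav6-7-dv9. That of Trav6-1 includes the WT replicate 2 value of 42.5 at 24 h, from 2 Traj segments above 0. The members' median estimate was 4.39 over all 12 libraries and 2.25 without the 4 tables, where Trav6-3 had the largest.

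Single pairs carried less precision. Over all 12 libraries no member pair of the 301 differed between genotypes at steady state, beside 0.294% of all pairs called lower, with 21 member pairs and 211 of all 3397 at an unadjusted p under 0.05. None differed in the mean of the samplings, beside 1.09% called lower, with 30 member pairs and 533 of all 3397 at an unadjusted p under 0.05. With the term for the 4 tables, 9 member pairs were lower in KO in that mean, beside 5.33% of all pairs. All 9 were with Traj21 to Traj2, as were 85.6% of all pairs so called. Without the 4 tables, 85 member pairs were lower and 19 higher, beside 26.1% and 10.7% of all pairs. Leaving out WT replicate 1 or 2 or KO replicate 1 of 48 h brought the count in that mean to 7, 28 and 4, and leaving out either WT library of 48 h brought 11 steady-state calls.

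On the 4 steady-state libraries alone, a fit chosen after seeing the data, 29 member pairs were lower in KO and 1 was higher, beside 9.16% and 1.62% of all pairs. Of the 29, 28 joined a Traj segment from Traj11 to Traj2, as did 84.6% of all 311 pairs called lower. They were spread over Trav6-1 (8 pairs), Trav6-2 (7), Trav6-5 (5), Trav6-4 (4), Trav6-6 (4) and Trav6-7-dv9 (1), with none in Trav6-3. The share of Trav6-6/Traj2 was 0.0483% and 0.0466% in WT and 0.00819% and 0.00806% in KO, and it fell by 1.66 ± 0.10 (SE, adjusted p = 0.0046) on the log2(percent + 0.01) scale. Trav6-2/Traj4 was at 0.0247% and 0.0282% against 0.00142% and 0.0047% (adjusted p = 0.01), and Trav6-1/Traj4 at 0.0212% and 0.0294% against 0.00214% and 0.00437% (adjusted p = 0.012). Traj4 and Traj2 lie near the 3' end of the array, and these pairs were rare in both KO libraries. Trav6-2/Traj6 was at 0.0255% and 0.0382% in WT and 0.00356% and 0.00672% in KO. Trav6-6/Traj4 was at 0.0518% and 0.0571% in WT and 0.0153% and 0.0188% in KO. The single pair that rose was Trav6-6/Traj52, from 0.0899% and 0.0889% in WT to 0.132% and 0.128% in KO (0.50 on the log2 scale, adjusted p = 0.048). The pseudocount understates the change of such low pairs.

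From 24 h to 48 h, 20 member pairs were called higher and 1 lower in the mean of both genotypes over all 12 libraries, beside 10.3% and 3.47% of all pairs. Of the 20, 13 joined a middle Traj segment, from Traj40 to Traj22, and 7 one from Traj21 to Traj2, against 43.0% and 56.7% of all pairs called higher. With the term for the 4 tables, 57 member pairs were higher and 16 lower, beside 21.5% and 10.6% of all pairs, and 154 and 28 without those tables, beside 44.1% and 16.1%. The pair that fell was Trav6-7-dv9/Traj52, with 0.204% and 0.180% in WT and 0.308% and 0.170% in KO at 24 h. At 48 h it held 0.0885% and 0.0658% in WT and 0.131% and 0.0587% in KO, below every 24 h value (log2 change of -1.25, adjusted p = 0.029). Trav6-2/Traj34 was at 0.0137%, 0, 0.00246% and 0 at 24 h and at 0.0322%, 0.0378%, 0.0328% and 0.0220% at 48 h, in the order WT then KO (adjusted p = 0.013). Trav6-4/Traj31 went from 0.0146%, 0, 0.0115% and 0 to 0.0415%, 0.0189%, 0.0446% and 0.0514% (adjusted p = 0.025). In both pairs the 2 libraries at 0 were the replicate 2 libraries, whose smallest share above 0 was 0.00401% or more. Trav6-5/Traj23 (adjusted p = 0.042), Trav6-5/Traj26 (adjusted p = 0.049) and Trav6-2/Traj32 (adjusted p = 0.013) also rose without overlap. The count of 21 fell to 4 without replicate 2 of either genotype at 24 h and rose to 64 without WT replicate 2 at 48 h. It was 8 or 9 without any 1 of the steady-state libraries and 13 without KO replicate 1 at 24 h. With array weights no pair was called, and with a pseudocount of 0.001 there were 4.

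The members with a D copy of the same number were compared with it within each library, a comparison chosen after seeing the data. Trav6-7-dv9 and Trav6d-7 were the pair whose partners lay farthest apart at steady state. Their last 289 bases are shown because 6 bases in them tell the copies apart, and capitals mark those. Over these bases Trav6d-7 and Trav6n-7 cannot be told apart. Trav6-7-dv9 lies at chr14:53710131-53710419 and Trav6d-7 at chr14:53007810-53008098, both on the plus strand of GRCm38. Counted from 1 at the first base printed, with the base of Trav6-7-dv9 first, the differences are A102G, C104T, G137T, C144T, T242C and A285G.
Trav6-7-dv9: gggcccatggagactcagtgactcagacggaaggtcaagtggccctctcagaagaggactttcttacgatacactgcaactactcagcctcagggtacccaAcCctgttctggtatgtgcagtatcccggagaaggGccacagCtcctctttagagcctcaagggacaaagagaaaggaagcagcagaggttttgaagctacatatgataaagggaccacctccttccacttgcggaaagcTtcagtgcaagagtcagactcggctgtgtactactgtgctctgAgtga
Trav6d-7: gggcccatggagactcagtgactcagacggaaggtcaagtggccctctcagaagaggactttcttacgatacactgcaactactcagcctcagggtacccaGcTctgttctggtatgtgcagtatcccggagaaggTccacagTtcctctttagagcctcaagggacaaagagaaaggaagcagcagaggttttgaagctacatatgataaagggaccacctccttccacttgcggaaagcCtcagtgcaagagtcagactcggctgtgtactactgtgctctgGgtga

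The share of Trav6-7-dv9 over that of Trav6d-7 at steady state was 0.911 and 0.689 in WT and 1.29 and 0.977 in KO. At 24 h it was 3.03 and 2.20 in WT and 4.52 and 1.94 in KO. At 48 h it was 0.804 and 0.549 in WT and 1.46 and 0.778 in KO. All 4 libraries at 24 h lay above all others. The log2 ratio rose by 1.54 ± 0.35 (SE, adjusted p = 0.0062 with limma) from steady state to 24 h, beside 42.4% of the 33 segments with a D copy, and fell by 1.70 ± 0.35 (adjusted p = 0.0073) from 24 h to 48 h, beside 39.4%. By row order Trav6-7-dv9 stands at 68 and Trav6d-7 at 33 of the 79. For Trav6-4 over Trav6d-4 the log2 ratio rose by 0.72 ± 0.24 (adjusted p = 0.038) from 24 h to 48 h, the sole segment of the 33 so called (3.03%), and it was not called without the 4 tables. No ratio differed between genotypes in the mean of the samplings (0 of 5 members and 0% of the 33, with 1 member and 7 segments at an unadjusted p under 0.05). With the term for the 4 tables, Trav6-6 (0.51, adjusted p = 0.032) and Trav6-7-dv9 (0.46, adjusted p = 0.037) were higher over their copies in KO, beside 45.5% of the 33. The ratio of Trav6-6 is uncertain, since it has the same coding sequence as Trav6d-6. Without the 4 tables Trav6-7-dv9 was called (0.64, adjusted p = 0.038) and Trav6-6 was not (0.28, adjusted p = 0.077), beside 51.5%.

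The partners of Trav6-7-dv9 lay farther 5' than those of Trav6d-7 in every library. The difference in mean Traj number at steady state was 13.1 and 15.5 in WT and 10.9 and 12.1 in KO. It was 4.73 and 3.11 in WT and 3.86 and 1.64 in KO at 24 h, and 12.6 and 10.5 in WT and 6.95 and 8.24 in KO at 48 h. The partners of the copies thus lay closer together at 24 h than at steady state, and the KO libraries lay below the WT libraries at steady state and at 48 h. With limma the gap was narrower in KO by -2.67 ± 0.82 (SE, adjusted p = 0.018) in the mean of the samplings, beside 54.5% of the 33 segments. Without the 4 tables this estimate was -3.13 for Trav6-7-dv9. It was -2.58 for Trav6-6, -2.49 for Trav6-5, -1.60 for Trav6-4 and -1.31 for Trav6-3. The gap of Trav6-7-dv9 fell by 9.56 ± 1.0 (adjusted p = 1.2e-05) from steady state to 24 h, beside 69.7%, and rose by 6.25 ± 1.0 (adjusted p = 0.00049) from 24 h to 48 h, beside 51.5%. On the 4 steady-state libraries alone the difference was lower in KO in 4 of 5 members, beside 75.8% of the 33. Over all 12 libraries none of the 5 was called, beside 3.03% of the 33 and with 1 of 5 at an unadjusted p under 0.05, and with the term for the 4 tables again none, beside 33.3%. The steady-state estimate was -4.04 ± 1.00 in Trav6-5 (adjusted p = 0.0058), and the exception was Trav6-3, at -0.83 ± 1.04 (adjusted p = 0.483).

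The shares of the other 4 members were set against those of their copies in the same way. In the 8 tables Trav6-5 was used 2.12 to 3.40 times as much as Trav6d-5, Trav6-6 1.35 to 2.33 times as much as Trav6d-6 and Trav6-4 1.04 to 1.60 times as much as Trav6d-4. How sequences were split between Trav6-6 and Trav6d-6, which have the same coding sequence, is not known, so their ratio is uncertain. Trav6-3 was used 0.155 to 0.307 times as much as Trav6d-3 in the 8 tables, and 1.14 to 3.19 times as much in the 4 tables that sum near 2. It was the only member whose ratio to its copy did not overlap between the 2 table sets. Its 289 bases differ from those of Trav6d-3 at 1 position, A287T, which lies in the last 40 bases of the exon. Trav6d-3 is at chr14:52726880-52726919 there, and its run is printed beside that of Trav6-3 because this base alone separates them.
Trav6-3: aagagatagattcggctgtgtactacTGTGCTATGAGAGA
Trav6d-3: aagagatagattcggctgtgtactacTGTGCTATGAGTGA

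**Figure D5:**
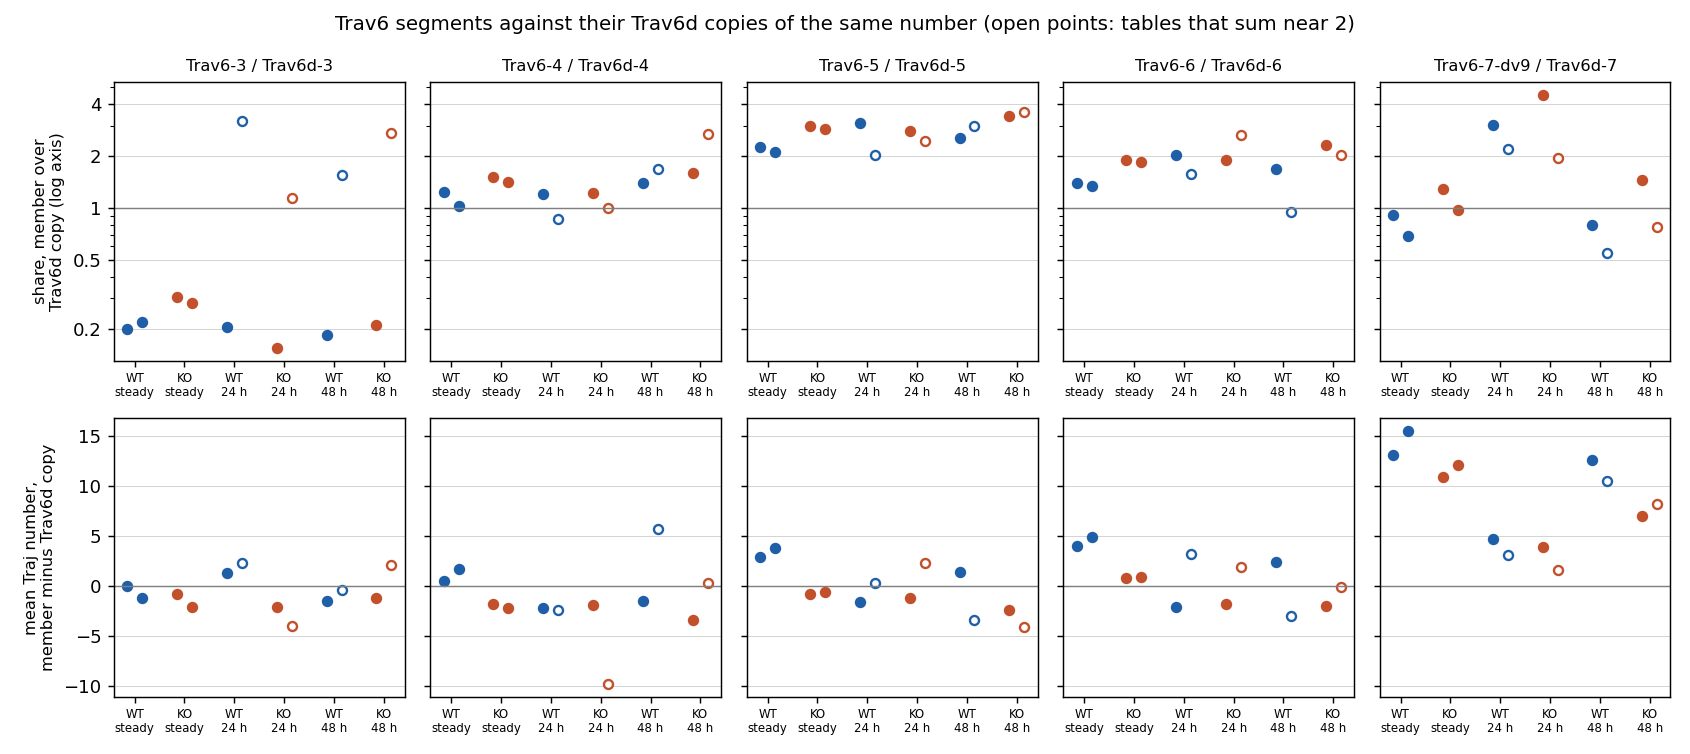
Ratio of the share of each Trav6 segment to that of its Trav6d copy on a log axis (upper row) and difference of their mean Traj numbers (lower row) in each library, for WT (blue) and KO (orange), with open points for the 4 tables that sum near 2. Trav6-7-dv9 over Trav6d-7 is highest at 24 h, and for Trav6-3 the open points, at 1.14 to 3.19, lie above all closed ones.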

How the data were processed

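Tcra transcripts of 12 libraries were amplified by template-switch RACE with an antisense Trac primer, per the labels' protocols. The authors deposited, per library, the fraction of the repertoire of each Trav-Traj pair. The counted unit, like the aligner and genome build, is not given in the sources used here, so no depth, interval or detection limit was computed. Each fraction was divided by its table's total. Shares were tested with limma 3.58.1 in R 4.3.3 on log2(percent + 0.01), a scale that understates changes of low shares, with 1 mean per group over all 12 libraries and Benjamini-Hochberg adjustment at 0.05 over the 79 shared Trav segments. Mean Traj numbers were tested the same way over 79, pairs over 3397 and copy comparisons over 33. Fits were run on simulated data with independent noise of equal spread in every library. That simulation lacks the wider spread of the 4 tables and the linked replicates, so it does not check the fits for these. Every member is named. Of the pairs, up to 5 per direction with the largest called change and no overlap are named, and of like segments 3 by Pearson r. Same-numbered WT and KO libraries deviated together over the 79 segments (r = 0.72 at steady state, 0.93 at 24 h, 0.93 at 48 h), so the replicate number was used as a block in an alternative fit. A block, table-set and leave-one-out fits, pseudocounts, filters, scalings and array weights were the alternatives. The members and lists were chosen with earlier results of these data known. Sequences were read from the GENCODE M21 transcripts of GRCm38 with Biopython 1.88.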

Additional observations from a re-analysis of the deposited data

How the results depend on the processing

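Counts in this section are numbers of the 7 members called, or of their 301 pairs. They show how calls move with the processing and are not results about the members beside other segments. With the term for the 4 tables, for instance, 41.8% of all segments were called higher and 17.7% lower in usage from 24 h to 48 h. Fits without the 4 tables leave 1 library a group at 24 h and 48 h, so their counts rest on the spread of the steady-state groups. With the replicate number as a block, 5 members were called for usage from 24 h to 48 h (1 without it), 1 in each genotype alone (0) and 1 for partners at 24 h (0). The block changed no other count of calls by more than 1.5 times. With a block within each sampling, added after seeing the data, usage gave 1 call for KO minus WT at 24 h, 1 at 48 h and 2 in the mean, 6 from 24 h to 48 h (5 in WT and 6 in KO) and 6 from steady state to 24 h, partners gave 1 at 24 h, and pairs gave 4 for KO minus WT and 74 from 24 h to 48 h. With a term for the 4 tables these were 1 at 24 h and 2 in the mean, 6 (6 and 6), 5, 2, 9 and 73. Without the 4 tables usage gave 2 in the mean, 6 (4 and 4) and 5, partners 6 at steady state and 6 at 24 h, and pairs 104, 182 and, at steady state, 30. The 4 steady-state libraries alone gave 6 for partners and 30 for pairs.

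Centring on the mean log2 share gave 2 usage calls from 24 h to 48 h and 1 in each genotype. Array weights gave 7 for partners at steady state, 37 for pairs there and 0 for pairs from 24 h to 48 h. The percent in the 5' window in place of the mean Traj number gave 0 at steady state and 1 at 24 h. A pseudocount of 0.1 gave 2 pairs for KO minus WT and 4 at steady state, and one of 0.001 gave 4 from 24 h to 48 h.

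Leaving out 1 library at a time gave 0 to 2 usage calls from 24 h to 48 h and 1 to 3 from steady state to 24 h. Partners gave 1 to 5 at steady state, 0 to 4 at 24 h, 3 to 5 at 48 h, 5 to 7 in the mean and 6 to 7 from 24 h to 48 h. Pairs gave 0 to 28 in the mean, 4 to 64 from 24 h to 48 h and 0 to 11 at steady state. Single values also crossed 0, none of them past the threshold in the fit over all 12 libraries. For usage at steady state, centring gave 0.0019 for Trav6-3 and 0.023 for Trav6-5, and scaling to the shared segments gave -0.014 for Trav6-4. In the mean, centring gave 0.040 for Trav6-4, and leaving out the 4 tables gave -0.078 for Trav6-6. Centring gave -0.11 for Trav6-6 from 24 h to 48 h. Without 1 library, usage at steady state ran from -0.17 to 0.098 for Trav6-3 and from -0.18 to 0.18 for Trav6-4. In the mean it ran from -0.69 to 0.19 for Trav6-1, -0.27 to 0.21 for Trav6-4, -0.48 to 0.29 for Trav6-5, -0.50 to 0.55 for Trav6-6 and -0.094 to 0.43 for Trav6-7-dv9. From 24 h to 48 h it ran from -0.098 to 1.05 for Trav6-5 and -0.61 to 0.96 for Trav6-6, and from steady state to 24 h from -0.11 to 0.64 for Trav6-7-dv9. Partners at 24 h ran from -5.10 to 5.34 for Trav6-1, -2.23 to 5.10 for Trav6-4 and -0.44 to 4.96 for Trav6-6.

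The cause of these differences was not tested. Of the single values under the alternatives, apart from those that left out 1 library, 461 kept their direction and side of the threshold, 64 newly passed, 8 no longer passed and 6 turned. With 2 libraries a group and no known depth, a share listed at 0 says only that. In the fit over all 12 libraries without a block or table term, differences small beside the spread between replicates could be missed.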
